A study of Schizosaccharomyces pombe with 24 samples.

Results

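The strain pla1-Y86L of fission yeast (Schizosaccharomyces pombe) was compared with wild type (WT) by RNA-seq of polyadenylated RNA, across all genes. The comparison used 6 of the 24 libraries of the series, 3 biological replicates of each strain, chosen by the genotype in their labels. Of 6988 identifiers in the count table, 6287 had enough reads to be tested. Both strains were haploid, of mating type h-, and were grown to log phase in YES, a rich medium, at 30 °C. In pla1-Y86L the amino acid change lies in Pla1 and the kanMX drug-resistance marker lies at pla1 itself, while WT carries no marker by its label. The other 18 libraries come from 6 further mutants of the same machinery. Of these, ysh1-L74F, pta1-T524M, msi2-G252E and the pfs2 alleles E104A and V180F are h- and carry kanMX beside a wild-type asp1, and cft1-L249Q is h+ and unmarked. The labels do not say whether a strain is 1 clone, so a difference between clones and a difference due to the allele cannot be told apart.

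Pla1 is the canonical poly(A) polymerase of fission yeast. It is an essential enzyme of the cleavage and polyadenylation complex, which cuts nascent transcripts and adds their poly(A) tails. Pla1 also polyadenylates transcripts that are then degraded or trimmed in the nucleus. Meiotic mRNAs made in growing cells are bound by the YTH protein Mmi1, polyadenylated and destroyed by the nuclear exosome, with the help of Red1 and the poly(A)-binding protein Pab2. Small nucleolar RNAs (snoRNAs) of the box H/ACA class, which guide pseudouridylation of ribosomal RNA, can pass through polyadenylated precursors that Pab2 and the exosome mature. By its title the series concerns mutations in this machinery that suppress precocious transcription termination.

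The libraries held 23 to 28.1 M counts in pla1-Y86L and 25.3 to 28.1 M in WT. The common biological coefficient of variation over all 24 libraries was 4.90%, and no pair of replicates agreed to within sampling noise. Levels are given as CPM, counts scaled to library size by the TMM method. Differences are log2 fold changes of pla1-Y86L over WT with their standard error (SE). A gene is called when its adjusted p in edgeR's quasi-likelihood test (Benjamini-Hochberg over all 6287 genes) is under 0.05. The RNA was selected by its poly(A) tail, so more of an RNA and a larger polyadenylated share of it cannot be told apart. The cultures are bulk samples, so fewer cells with an RNA and less of it per cell cannot be told apart either.

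The mutated gene itself was low in the mutant. The pla1 mRNA was at 36.4, 34.7 and 34.9 CPM in the 3 pla1-Y86L libraries and at 153, 146 and 149 CPM in WT. The mutant libraries lay below every WT library and below all 18 libraries of the other mutants, which ran from 126 to 158 CPM. The log2 fold change was -2.08 ± 0.04 (SE), a 4.24-fold difference (adjusted p = 1.79e-21, edgeR's quasi-likelihood test with Benjamini-Hochberg adjustment). SPNCRNA.1398, a non-coding RNA annotated on the opposite strand and overlapping pla1 only at its edge, was at 18.4, 19.6 and 19.3 CPM in pla1-Y86L, against 4.46, 4.81 and 5.29 CPM in WT. It was 1.97 ± 0.09 higher on the log2 scale. The protein-coding neighbours of pla1, named for their position, moved little: gta1 was at -0.16 ± 0.05 and erg9, which was not called, at -0.04 ± 0.03. The kanMX marker, the low pla1 mRNA and the changed residue come together in the strain and cannot be told apart.

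Genes linked to other labels were looked at too. The asp1 gene, which is marked in 5 of the other mutants and not here, was at 105, 99.92 and 99.98 CPM in pla1-Y86L and at 127, 129 and 131 CPM in WT (-0.34 ± 0.05, log2). SPNCRNA.1144, antisense to asp1 and chosen after its values were seen, was at 0.841 to 1.23 CPM in pla1-Y86L and at 0.557 to 0.937 CPM in WT and was not called. The M-cell pheromone gene mfm2 was present in all 6 libraries, at 11.1 to 12.3 CPM in pla1-Y86L and at 36.2 to 50.8 CPM in WT. Likewise mam1, which encodes the exporter of that pheromone, was at 38.9 to 43.9 CPM in pla1-Y86L and at 65.5 to 73.9 CPM in WT. Of the other M-cell genes, mam2 was at -0.51, and mfm1 (-0.59) and mfm3 (0.38) were not called. Levels in h+ cells and of genes of the opposite mating type are not set beside these, so the mating type is taken from the labels.

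Small changes were widespread, and most of the genes that rose at least 2-fold were non-coding. Of the 6287 genes tested, 4063 (64.6%) were called, 2027 higher (32.2%) and 2036 lower (32.4%) in pla1-Y86L. At least 2-fold apart were 433 genes (6.89%), 305 higher (4.85%) and 128 lower (2.04%). Of the 305 higher genes, 182 were long non-coding RNA (lncRNA) genes, 97 protein-coding and 20 snoRNA genes. Of the 128 lower genes, 69 were protein-coding, 52 lncRNA and 3 snoRNA genes. The median log2 fold change over all genes was 0.003.

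The direction went with the level of expression. In the third of genes with the lowest mean CPM, 37.1% of 2096 genes were higher and 19.4% lower in pla1-Y86L, with a median log2 fold change of 0.15. In the third with the highest mean CPM, 25% were higher and 45.9% lower, with a median of -0.08. In 2209 genes (35.1%) all 3 pla1-Y86L libraries lay above all 3 WT libraries, and in 2177 genes (34.6%) they all lay below. The lncRNA and snoRNA genes took a larger share of the library in every pla1-Y86L replicate than in any WT replicate. The lncRNA genes held 1.15 ± 0.0386% of counts in pla1-Y86L and 1.05 ± 0.0211% in WT, and the snoRNA genes 0.113 ± 0.00200% in pla1-Y86L and 0.0289 ± 0.00166% in WT (SD, n = 3 each, two-sided exact permutation p = 0.1 for each, the smallest that 3 against 3 libraries allow). The snoRNA difference of 0.0843 percentage points was 0.0518 without the snoRNA gene with the most counts. Protein-coding genes held 98.69 ± 0.0365% of counts in pla1-Y86L and 98.88 ± 0.0264% in WT (SD, n = 3 each, two-sided exact permutation p = 0.1). The share of ribosomal RNA genes was 0.00893 ± 0.00129% in pla1-Y86L and 0.0103 ± 0.00167% in WT (SD, n = 3 each, two-sided exact permutation p = 0.3).

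**Figure D1:**
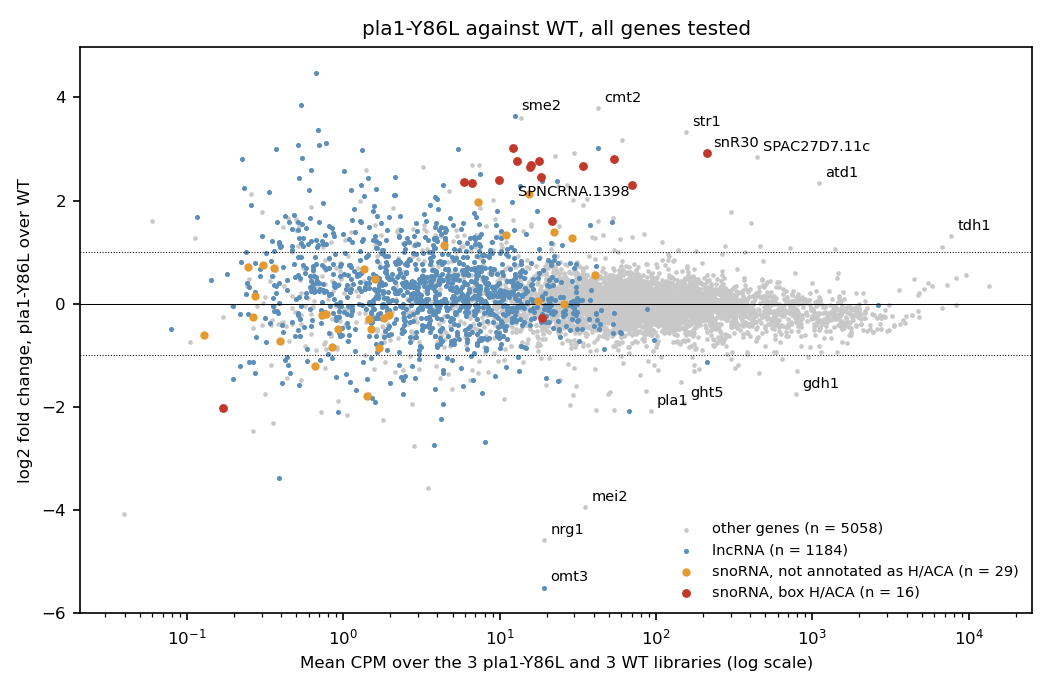
Log2 fold change of pla1-Y86L over WT against the mean CPM of the 6 libraries (log scale) for the 6287 genes tested, coloured by class. The dotted lines mark 2-fold. The 14 box H/ACA snoRNA genes that were higher stand above 2-fold, apart from snR101 and snR96 below 0, and nrg1, mei2 and omt3 lie at the bottom.

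To place the mutant among mutants of the same machinery, pla1-Y86L was also tested against the mean of the other 6 mutants. No WT library is on either side of this comparison, though all 24 libraries were in the fit behind its p-values. Here 4489 genes (71.4%) were called, 2250 higher (35.8%) and 2239 lower (35.6%). At least 2-fold apart were 402 genes (6.39%), 270 higher (4.29%) and 132 lower (2.1%). Of the 305 genes at least 2-fold higher than WT, 211 were also at least 2-fold higher than the other mutants, and of the 128 lower genes 88 were also at least 2-fold lower. Both comparisons use the same 3 pla1-Y86L libraries, so part of this overlap is built in and it is not independent evidence. All 3 pla1-Y86L libraries lay above all 18 libraries of the other mutants in 1021 genes (16.2%) and below all of them in 895 genes (14.2%). These shares are the background for the counts that follow.

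Of the 44 gene lists, that of the box H/ACA snoRNA genes had the highest median change. The annotation holds 20 of them, of which 16 had enough reads to be tested, and 14 of the 16 were at least 2-fold higher in pla1-Y86L (4.85% of all genes). The other 2, snR101 and snR96, were lower. The median log2 fold change of the 16 was 2.55. Each of the 14 lay above all WT libraries and above all 18 libraries of the other mutants in all 3 pla1-Y86L libraries. Summed over the 16 genes, the level was 883, 884 and 902 CPM in pla1-Y86L and 166, 161 and 151 CPM in WT. This list was drawn up after the values of the snoRNA genes were seen.

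Among them is snR30, the fission yeast U17, an H/ACA RNA that acts in cleavage of the ribosomal RNA precursor. It was at 368, 373 and 374 CPM in pla1-Y86L, against 52.1, 49.9 and 46.3 CPM in WT. All pla1-Y86L libraries were high and the groups did not overlap, and the other mutants stayed at 29.3 to 51.6 CPM. The difference was 2.91 ± 0.05 on the log2 scale, or 7.53-fold (adjusted p = 1.79e-21, edgeR's quasi-likelihood test with Benjamini-Hochberg adjustment). For snR95 the levels were 117, 117 and 115 CPM in pla1-Y86L and 23.6, 23.5 and 23.4 CPM in WT (2.31 ± 0.07). For sno12 they were 89.7, 89.8 and 104.2 CPM in pla1-Y86L and 16.1, 13.7 and 10.7 CPM in WT (2.81 ± 0.13). Again the groups stood wholly apart. The gene snR92 was at 18.7, 17.2 and 29.1 CPM in pla1-Y86L and at 2.58, 3.14 and 2.36 CPM in WT (3.01 ± 0.20), with replicate 3 of the mutant above its other replicates, as were the genes next to it on the chromosome.

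The remaining H/ACA genes that rose did so by similar amounts. The log2 fold changes were 2.77 for snR33 and for snR98, 2.69 for snR91, 2.68 for sno20, 2.65 for snR3, 2.45 for snR42, 2.39 for snR94, 2.35 for snR93, 2.34 for snR36 and 1.6 for snR90. Not all of these genes belong to the naming rule, and they are given to complete the list. The exception among well-covered members was snR101, at 17.9, 16.3 and 16.6 CPM in pla1-Y86L and 20.1, 19.7 and 22.1 CPM in WT (-0.29 ± 0.07). Its pla1-Y86L libraries lay below all WT libraries and below all 18 libraries of the other mutants. The other exception, snR96, had 21 reads in the 3 WT libraries together, and its call was lost without WT replicate 3 or pla1-Y86L replicate 1.

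**Figure D2:**
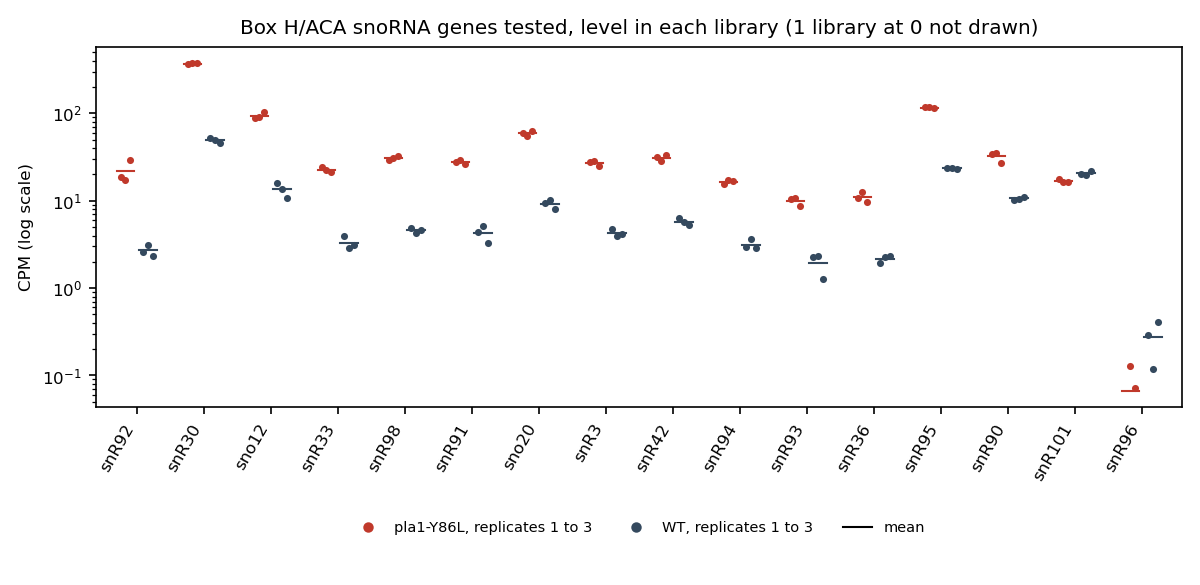
Level in CPM (log scale) of the 16 box H/ACA snoRNA genes tested, in each pla1-Y86L library (left of each pair) and each WT library (right), with the mean as a bar. In 14 genes all pla1-Y86L points stand above all WT points, while snR101 is slightly lower and snR96 lies near the bottom of the count range.

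Other snoRNA genes behaved less uniformly. Of 40 that are not annotated as box H/ACA, a list also drawn up after values were seen, 29 were tested, 8 were higher and 4 lower in pla1-Y86L, with a median log2 fold change of -0.01. At least 2-fold higher were 6 of them. The largest was snoZ16, at 24.8, 24.4 and 26 CPM in pla1-Y86L and 6.21, 6.88 and 4.31 CPM in WT (2.12 ± 0.19). It was followed by snoR02 at 1.98 ± 0.19, snr79 at 1.39 ± 0.07 and snR51b at 1.33 ± 0.12. The lower ones were thinly covered. They included snoR69b, at 0.768, 0.516 and 0.581 CPM in pla1-Y86L and 2.67, 2.23 and 1.69 CPM in WT (-1.79 ± 0.30).

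Of the box C/D class, snoU14, an RNA needed for 18S rRNA maturation, was not called. It was at 27.2, 24.8 and 25.2 CPM in pla1-Y86L and 27.8, 26.1 and 24.3 CPM in WT (-0.01 ± 0.07). The U3 genes snu3 and snu32 were at -0.27 ± 0.24 and -0.23 ± 0.32, also not called, and their larger standard errors limit what this shows. These 3 genes were chosen after their values were seen and do not stand for the box C/D class. The higher snoRNA genes of the paragraph above were not sorted into box C/D and others. None of the 3 snRNA genes tested was called. Proteins that bind or assemble snoRNAs showed small differences, with 1 of 11 genes higher and 2 lower. The H/ACA assembly factor gene shq1 was 0.25 ± 0.06 higher, and gar1, a structural subunit of the H/ACA particle, was at -0.13 ± 0.05. The other lower gene was rsa1, at -0.15 ± 0.05, which is annotated as a ribosome assembly protein. Neither of the lower genes of this list was called without WT replicate 3 or pla1-Y86L replicate 1, and 1 was called without WT replicate 1 or pla1-Y86L replicate 3.

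Meiotic transcripts that Mmi1 removes from growing cells were higher as well. Of 16 on the list, 14 were higher, 9 of them at least 2-fold, and 1 was lower, with a median log2 fold change of 1.06. In 11 of the 16 all 3 pla1-Y86L libraries lay above all 18 libraries of the other mutants. The summed level was 181, 179 and 200.4 CPM in pla1-Y86L and 98.7, 99.4 and 98.0 CPM in WT. The rise of this list was known from earlier work on these libraries, so its direction is not independent evidence.

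The member that moved furthest was sme2, which encodes meiRNA, a non-coding RNA that binds Mei2 and sequesters Mmi1 in meiosis. It was at 23.4, 23.5 and 22.4 CPM in pla1-Y86L and at 1.67, 1.99 and 1.91 CPM in WT. No library of the other mutants exceeded 2.68 CPM. The difference was 3.63 ± 0.18 on the log2 scale, or 12.4-fold (adjusted p = 1.26e-13, edgeR's quasi-likelihood test with Benjamini-Hochberg adjustment). The forkhead factor gene mei4, which drives mid-meiotic transcription, was at 10.6, 11.2 and 14.3 CPM in pla1-Y86L and at 4.21, 4.02 and 4.46 CPM in WT (1.51 ± 0.14). The meiotic cohesin gene rec8 was at 5.41, 5.72 and 7.55 CPM in pla1-Y86L and at 2.83, 2.19 and 1.69 CPM in WT (1.49 ± 0.18). In each of these 3 genes every mutant library stood above every WT library. The gene mug10 was 1.43 ± 0.16 higher.

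One member of the list went the other way. The gene mcp7, which encodes a protein of meiotic recombination, was at 7.86, 8.94 and 9.77 CPM in pla1-Y86L and at 19.6, 19.7 and 18.9 CPM in WT (-1.13 ± 0.10). It also lay below all 18 libraries of the other mutants. The gene mei3, at under 1 CPM in every library, was not called (0.35 ± 0.38).

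Outside the list, some of the largest rises were also in meiotic genes. The hop1 gene, which encodes an axis protein of meiotic chromosomes, was at 12.8, 11.7 and 13.9 CPM in pla1-Y86L and at 2.17, 2.19 and 1.65 CPM in WT (2.68 ± 0.15). The mek1 gene, for a meiosis-specific kinase, was at 7.57, 7.87 and 7.91 CPM in pla1-Y86L and at 1.79, 1.51 and 1.84 CPM in WT (2.18 ± 0.18). Both lay above all libraries of the other mutants. The genes meu27 and meu1, named for expression in meiosis, were 2.69 ± 0.13 and 1.54 ± 0.10 higher. The wider group was mixed. Of 110 mug and meu genes tested, 47 were higher, 16 of them at least 2-fold, and 26 were lower, none of them 2-fold, with a median of 0.10. Of 24 genes of the wtf spore killer family tested, 12 were higher and 1 lower, with a median of 0.35, and wtf20 (1.31 ± 0.14) and wtf11 (-0.91 ± 0.09) marked the ends. Family members resemble each other, and how reads shared between wtf genes were counted is not given in the sources used here.

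The machinery that removes meiotic transcripts changed by small amounts. Of 26 exosome and surveillance genes, 11 were higher and 6 lower, with none 2-fold apart. The gene red1, for the zinc finger protein at the centre of the surveillance complex, was at 141, 138 and 148 CPM in pla1-Y86L and 112, 104.4 and 113 CPM in WT (0.38 ± 0.04). Its partner red5 was 0.36 ± 0.04 higher, and ctr1 was 0.73 ± 0.12 higher. The Red1-binding protein gene iss10 was lower, at -0.21 ± 0.03. The mmi1 mRNA, chosen for its role, was at 80.0, 79 and 72 CPM in pla1-Y86L and 89.9, 86.3 and 89.4 CPM in WT (-0.20 ± 0.04).

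In contrast to the Mmi1 list, genes of sexual differentiation and nitrogen starvation were mostly lower. Of 28, 20 were lower, 7 of them at least 2-fold, and 2 were higher, with a median log2 fold change of -0.42. Their summed level was 831, 842 and 838 CPM in pla1-Y86L and 1158, 1183 and 1122 CPM in WT. Against the other mutants 20 were lower and 1 higher.

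At the head of this group stood mei2, which encodes the RNA-binding protein that starts meiosis. It was at 4.13, 4.04 and 4.61 CPM in pla1-Y86L and at 68.1, 62.5 and 67.2 CPM in WT. The 18 libraries of the other mutants ran from 17.4 to 68.3 CPM, all above pla1-Y86L. The log2 fold change was -3.95 ± 0.18, a 15.4-fold difference (adjusted p = 2.14e-14, edgeR's quasi-likelihood test with Benjamini-Hochberg adjustment). The lncRNA gene omt3, which lies on the upstream side of mei2, was at 0.914, 0.903 and 0.653 CPM in pla1-Y86L and at 40.1, 36.8 and 35.7 CPM in WT. Its log2 fold change of -5.51 ± 0.33 was the lowest of all genes tested. Between them SPNCRNA.993 was at -1.91 ± 0.27. The flanking genes grp1, omt2 and apc14 were at -0.19, -0.21 and -0.23. These last 4 genes were named for their position.

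The HMG-box factor gene ste11, the main switch of sexual differentiation, was at 13.1, 15 and 10.3 CPM in pla1-Y86L and at 33.2, 41.2 and 32.9 CPM in WT (-1.49 ± 0.19). The groups did not overlap, though libraries of the other mutants reached down to 9.70 CPM. The gene ste4, for an adaptor of the pheromone MAP kinase cascade, was at 8.92, 11 and 9.95 CPM in pla1-Y86L and at 30.2, 31.8 and 27.3 CPM in WT (-1.58 ± 0.09). The pheromone gene mfm2, whose levels are given above, was at -1.96 ± 0.11. The mating-type factor gene map1 was at -1.35 ± 0.11, and the oligopeptide transporter gene isp4 at -1.27 ± 0.20. The exceptions were the protease genes sxa2 (0.34 ± 0.07) and psp3 (0.28 ± 0.06).

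**Figure D3:**
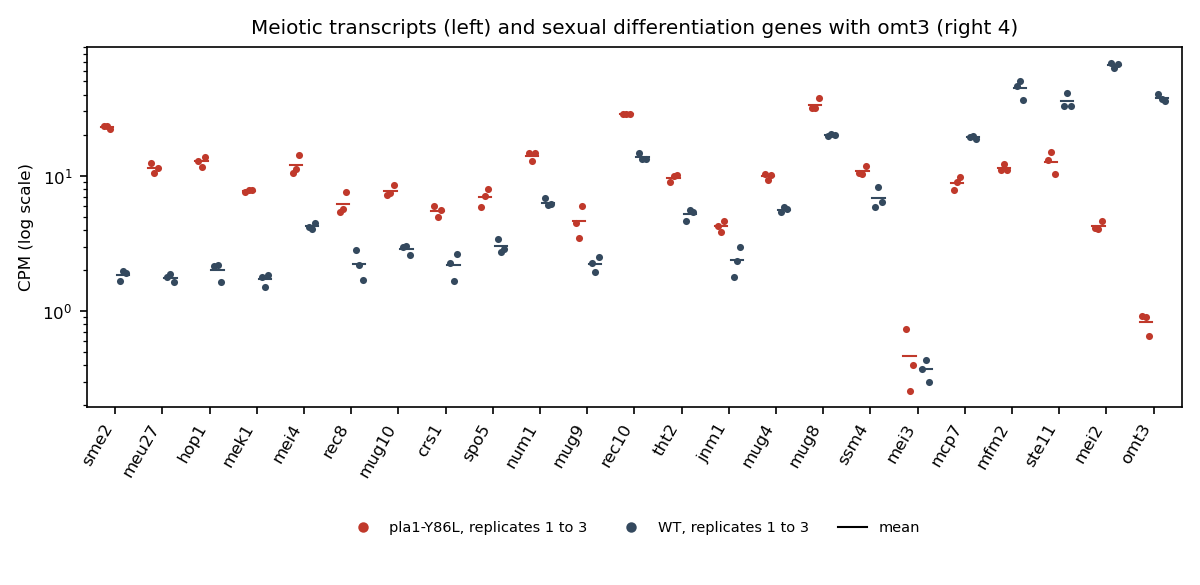
Level in CPM (log scale) of meiotic transcripts and, in the right 4 positions, of mfm2, ste11, mei2 and omt3, in each pla1-Y86L library (left of each pair) and each WT library (right), with the mean as a bar. The pla1-Y86L points stand above WT for most meiotic transcripts and below it for mcp7 and the right 4 genes.

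More lncRNA genes were higher than lower, as in the third of all genes with the lowest level. Of 1520 lncRNA genes, 1184 were tested, 451 were higher (182 at least 2-fold) and 220 lower (52 at least 2-fold), with a median of 0.22. These are 38.1% higher and 18.6% lower, against the 37.1% and 19.4% given above for genes with the lowest level. Those genes include many of the lncRNA genes themselves, so the comparison cannot show whether the list differs from other genes of its level. A difference from low-level genes of other classes was not tested. Of 797 lncRNAs overlapping a protein-coding gene on the opposite strand, 299 were higher, 91 of them at least 2-fold, and 147 lower. Of 375 others, 148 were higher, 87 of them at least 2-fold, and 72 lower, and the difference between these groups was not tested. Protein-coding genes gave 1539 higher and 1801 lower of 5004, with a median of -0.02. Protein-coding genes followed by a gene on the same strand (678 higher and 841 lower of 2260, median -0.03) and those facing a convergent gene (861 higher and 960 lower of 2740, median -0.01) differed little.

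Large changes among lncRNAs went both ways. SPNCRNA.1511 was at 77.4, 72.4 and 77.5 CPM in pla1-Y86L and at 10.1, 9.63 and 8.51 CPM in WT (3.01 ± 0.08). SPNCRNA.1444 was at 9.80, 8.73 and 10.2 CPM in pla1-Y86L and at 1.00, 1.11 and 1.46 CPM in WT (2.99 ± 0.17). Both were above all libraries of the other mutants. Lower were SPNCRNA.863, at 21.8, 25 and 29.8 CPM in pla1-Y86L and 109, 126 and 91.5 CPM in WT (-2.09 ± 0.13), and SPNCRNA.888, at 2.16, 2.88 and 1.6 CPM in pla1-Y86L and 14.1, 13.8 and 14.2 CPM in WT (-2.68 ± 0.13). SPNCRNA.1344 and SPNCRNA.1557 were at -2.73 ± 0.23 and -2.24 ± 0.20.

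Overlapping sense and antisense pairs did not follow a single pattern. There were 961 pairs with both members tested, with any length of overlap counted. Where the lncRNA was higher, the gene was higher in 120 pairs, lower in 122 and not called in 122. Where the lncRNA was lower, the gene was higher in 54 pairs, lower in 59 and not called in 68. No source used here gives the strand setting of the counting, so reads of the members of a pair may not be separated. Of the 6 pairs with the largest gap, the lncRNA rose and the gene fell in 3, the reverse held in 2, and both rose in 1. The gene gnr1, for a G protein beta subunit, was at 37.9, 39.7 and 40.8 CPM in pla1-Y86L and 8.37, 7.32 and 8.51 CPM in WT (2.29 ± 0.10), while SPNCRNA.1158 across it was at -1.44 ± 0.08. SPAC23C11.06c, annotated as a hydrolase, was 1.61 ± 0.08 higher, with SPNCRNA.798 at -1.49 ± 0.07. The opposite was seen at pla1, described above, and at SPBC1271.07c, annotated as an N-acetyltransferase, at 22.5, 22.4 and 22.8 CPM in pla1-Y86L and 78.6, 84.5 and 66.8 CPM in WT (-1.76 ± 0.10), opposite SPNCRNA.1346, which rose by 3.07 ± 0.40 at levels under 2 CPM. It was also seen at SPCC191.06, an uncharacterized gene (-0.80 ± 0.11), whose lncRNA SPNCRNA.1221 was at 0.841, 0.817 and 1.38 CPM in pla1-Y86L and 0.0833, 0.119 and 0 CPM in WT. The meiotic recombination gene rec24 was 0.36 ± 0.14 higher, and SPNCRNA.257 across it was at 1.46, 1.42 and 0.98 CPM in pla1-Y86L and 0.0417, 0.119 and 0 CPM in WT. The overlap held a share of 0.004 of the lncRNA at pla1 and 0.096 at SPCC191.06, so the members of these pairs barely overlap. In the other pairs of the 6 this share ran from 0.803 to 1.

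Among the phosphate-regulated genes, pho1 and tgp1 were higher in pla1-Y86L than in any library of the other mutants, and pho84 was not. They encode the acid phosphatase Pho1 and the transporters Pho84 and Tgp1, and a lncRNA transcribed upstream of each one represses it. In pla1-Y86L the pho1 mRNA was at 900.5, 862 and 771 CPM, against 1178, 1291 and 1156 CPM in WT (-0.52 ± 0.08), and against 124 to 433 CPM in the 18 libraries of the other mutants. It was thus below all WT libraries and above all libraries of the other mutants, with a log2 difference of 1.87 from the mean of the other mutants. The pho84 mRNA was at 836, 813 and 691 CPM in pla1-Y86L and 1540, 1495 and 1433 CPM in WT (-0.93 ± 0.08), and 0.81 above the mean of the other mutants, whose highest library reached 826 CPM. Against WT, pho84 was at -1.01 in pta1-T524M and -0.98 in ysh1-L74F, close to its value in pla1-Y86L, and from -2.67 to -1.66 in the other 4 mutants. The tgp1 mRNA was at 26.2, 26.8 and 28 CPM in pla1-Y86L and 25.1, 22.2 and 24.2 CPM in WT (0.18 ± 0.07), a call that was lost without WT replicate 2 (0.14) or pla1-Y86L replicate 3 (0.16). It was 0.69 above the mean of the other mutants, where no library exceeded 21.2 CPM.

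The lncRNAs upstream of these genes were higher in pla1-Y86L. The RNA nc-pho1 was at 28.2, 31.7 and 31.5 CPM in pla1-Y86L and at 3.92, 4.93 and 4.61 CPM in WT (2.76 ± 0.09). For nc-tgp1 the levels were 79, 83.1 and 74 CPM in pla1-Y86L and 27.2, 26.9 and 25 CPM in WT (1.58 ± 0.07). Both exceeded all libraries of the other mutants, which reached 15.4 CPM for nc-pho1 and 25.4 CPM for nc-tgp1. The RNA prt2, upstream of pho84, was at 36.2, 36.3 and 39.9 CPM in pla1-Y86L and 27.9, 26.9 and 24.9 CPM in WT (0.50 ± 0.05), and here the other mutants ran higher, to 69.1 CPM.

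Side by side with the other mutants, each against the same 3 WT libraries, several members differed in sign or size. For nc-tgp1 the log2 fold change was 1.58 in pla1-Y86L and from -0.50 to -0.21 in the other 6 mutants. For snR30 it was 2.91 in pla1-Y86L and from -0.61 to 0.03 in the others, and for sme2 3.63 in pla1-Y86L and from -0.94 to 0.32 in the others. The comparisons share the WT libraries, so their values are set beside each other without a test of likeness.

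**Figure D4:**
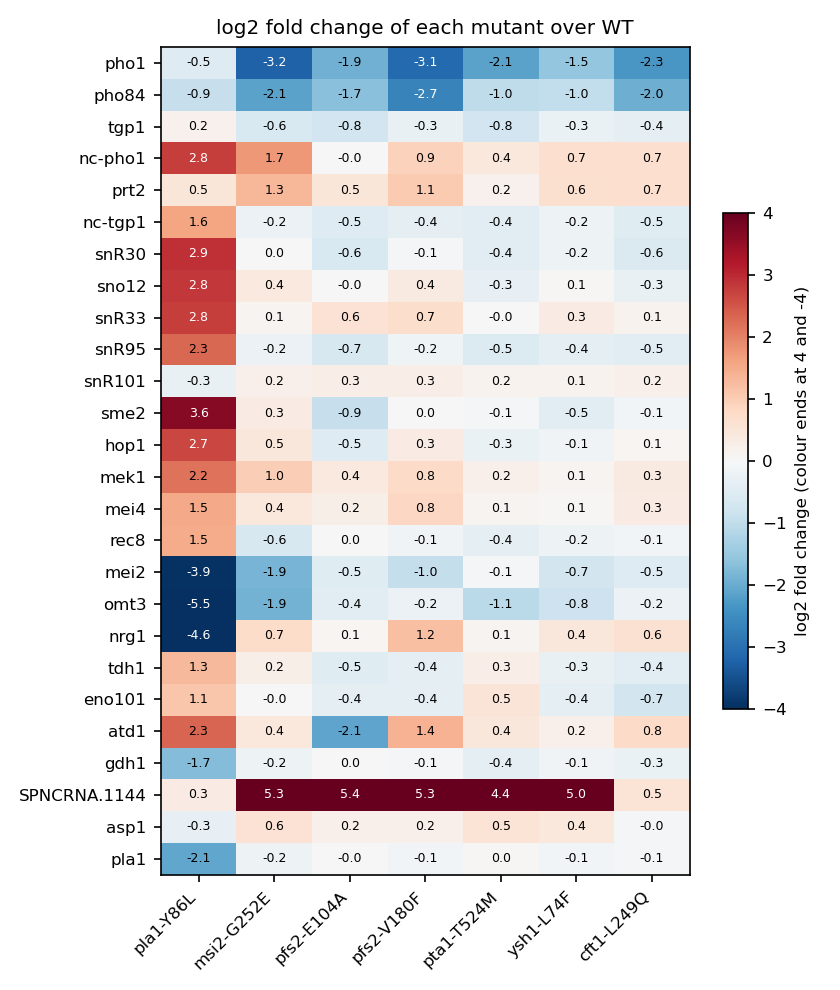
Log2 fold change over WT of 26 genes in each of the 7 mutants, with pla1-Y86L in the left column and the colour ending at 4 and -4. The snR30, sno12, snR33, snR95, nc-tgp1 and sme2 rows are high in pla1-Y86L alone among these columns, while the snoRNA snR101 is at -0.29 there. The mei2 and omt3 rows are lowest in pla1-Y86L, and SPNCRNA.1144 is high in the 5 strains marked at asp1.

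Among protein-coding genes with a symbol, cmt2 rose furthest. It is annotated as a catechol O-methyltransferase and was at 78.4, 70.6 and 88.7 CPM in pla1-Y86L and at 4.46, 6.64 and 6.07 CPM in WT (3.79 ± 0.13, 13.8-fold). All other mutants stayed at or below 34.2 CPM. The But2 family gene SPAC27D7.11c was at 727, 776 and 828 CPM in pla1-Y86L and at 108, 124 and 93.7 CPM in WT (2.84 ± 0.09). The aldehyde dehydrogenase gene atd1 was at 1767, 1815 and 1902 CPM in pla1-Y86L and at 383, 319 and 387 CPM in WT (2.33 ± 0.13). In all 3 genes the groups stood wholly apart, which the rule for naming the largest changes required. SPAPB1A11.05, which has no match in the annotation used, was 3.59 ± 0.15 higher.

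For several further genes that rose, libraries of other mutants reached similar levels. The glutathione S-transferase gene gst2 was at 454, 414 and 534 CPM in pla1-Y86L and at 131, 134 and 143 CPM in WT (1.78 ± 0.08), with the other mutants at 134 to 1191 CPM. The genes osr1 (2.04 ± 0.11), srx1, for sulfiredoxin (1.86 ± 0.18), plr1, for pyridoxal reductase (1.12 ± 0.06), and obr1, for a quinone reductase (1.05 ± 0.10), were likewise higher than WT and within the range of the other mutants. The brefeldin A efflux pump gene bfr1 was at 564, 578 and 677 CPM in pla1-Y86L and at 204, 201 and 212 CPM in WT (1.56 ± 0.08). It lay above all libraries of the other mutants, as did the arginase gene aru1 (1.08 ± 0.07). As a group, core environmental stress genes were split, with 15 of 29 higher and 10 lower and a median of 0.08. The lower ones included rds1, at -1.11 ± 0.10. Of 17 heat shock chaperone genes 4 were higher and 7 lower.

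The largest fall among protein-coding genes with a symbol was in nrg1, annotated as an amino acid permease. It was at 1.61, 1.68 and 1.34 CPM in pla1-Y86L and at 35.6, 32.1 and 43 CPM in WT. The other mutants ran from 33.3 to 90.8 CPM, all above pla1-Y86L. The log2 fold change was -4.58 ± 0.21, a 24-fold difference (adjusted p = 2.14e-14, edgeR's quasi-likelihood test with Benjamini-Hochberg adjustment). The dihydroxyacetone kinase gene dak2 was at 16.1, 16.7 and 14.9 CPM in pla1-Y86L and at 66.9, 63.1 and 68.7 CPM in WT (-2.06 ± 0.10). The uracil-regulated gene urg2 was at 19.1, 21 and 22 CPM in pla1-Y86L and at 88.4, 95.7 and 77.4 CPM in WT (-2.07 ± 0.36). Both were also below all libraries of the other mutants. The alcohol dehydrogenase gene adh4 was at -1.52 ± 0.05, the biotin transporter gene vht1 at -1.26 ± 0.11 and aes1 at -1.69 ± 0.13.

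Genes of nitrogen assimilation and amino acid synthesis were lower. Of 44 amino acid biosynthesis genes, 36 were lower and 2 higher, with a median log2 fold change of -0.30, and against the other mutants 29 were lower and 3 higher. Their summed level was 18039, 18278 and 17935 CPM in pla1-Y86L and 25716, 25783 and 26012 CPM in WT. The NADP-dependent glutamate dehydrogenase gene gdh1 was at 359, 362 and 365 CPM in pla1-Y86L and at 1204, 1204 and 1239 CPM in WT (-1.75 ± 0.05). The arginine pathway gene arg4, for the large subunit of carbamoyl-phosphate synthase, was at 461, 476 and 447 CPM in pla1-Y86L and at 1138, 1156 and 1124 CPM in WT (-1.30 ± 0.05). Further genes of that pathway, arg5 and arg12, were at -0.98 ± 0.04 and -0.94 ± 0.05. The gene met16 of sulfate assimilation was 0.53 ± 0.03 higher.

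Several glycolytic genes were higher, while the glucose transporter gene ght5 was lower. Of 29 genes on the carbon source list, 13 were higher and 8 lower, with a median of 0.10, and 11 lay above all libraries of the other mutants (16.2% of all genes). The summed level of the list was 76462, 76835 and 87959 CPM in pla1-Y86L and 53685, 53855 and 56413 CPM in WT. The glyceraldehyde-3-phosphate dehydrogenase gene tdh1 was at 10725, 10364 and 11948 CPM in pla1-Y86L and at 4175, 4257 and 4883 CPM in WT (1.31 ± 0.07). The enolase gene eno101 was at 9004, 8798 and 9969 CPM in pla1-Y86L and at 4090, 4148 and 4745 CPM in WT (1.10 ± 0.09). The second enolase gene, eno102, was at 3.62, 3.01 and 3.52 CPM in pla1-Y86L and at 9.79, 9.07 and 9.48 CPM in WT (-1.47 ± 0.12). The hexokinase gene hxk2 was 0.59 ± 0.05 higher. The high-affinity glucose transporter gene ght5 was at 51.1, 64.6 and 72.2 CPM in pla1-Y86L and at 172, 333 and 212 CPM in WT (-1.93 ± 0.23), with WT replicate 2 high. The glucose repressor gene scr1 was at -0.72 ± 0.12.

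Genes of respiration were lower. Of 54 respiratory chain and ATP synthase genes, a list drawn up after values were seen, 40 were lower and 6 higher, with a median of -0.44. Their summed level was 9167, 8769 and 6940 CPM in pla1-Y86L and 12711, 12259 and 12386 CPM in WT. Replicate 3 of pla1-Y86L was lower than both other replicates in 44 of the 50 members with at least 20 CPM, with a median ratio of 0.755, and the median of the list was -0.32 without it. The qcr8 gene of the cytochrome bc1 complex was at 113, 107 and 81.3 CPM in pla1-Y86L and at 264, 240 and 237 CPM in WT (-1.30 ± 0.08). The NADH dehydrogenase gene nde1 was at 292, 300.4 and 182 CPM in pla1-Y86L and at 657, 619 and 690 CPM in WT (-1.34 ± 0.11). The citrate synthase gene cit1, at 198, 208 and 204 CPM in pla1-Y86L and 471, 474 and 453 CPM in WT (-1.20 ± 0.04), showed no such drop in replicate 3. The mitochondrial carrier gene yhm2 was at -1.07 ± 0.05.

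Genes induced by iron starvation were mostly higher, and iron-using genes, which the repressor Php4 lowers when iron is scarce, were mostly lower. Of 13 genes on the iron starvation list 9 were higher and 3 lower, with a median of 0.41. The lower ones were shu1, at -2.32, sib1, at -0.17, and fep1, at -0.25, which encodes a repressor and is not itself a starvation-induced gene. Of 15 iron-using genes 13 were lower and 2 higher, with a median of -0.39. The siderophore transporter gene str1 was at 239, 244 and 367 CPM in pla1-Y86L and at 20.7, 18.9 and 44.6 CPM in WT (3.33 ± 0.31). The ferroxidase gene fio1 was at 38.3, 37.7 and 57.4 CPM in pla1-Y86L and at 7.96, 7.24 and 11.9 CPM in WT (2.30 ± 0.24). Replicate 3 was the highest library in both strains. None of the 13 genes on the starvation list lay beyond all libraries of the other mutants, among which str1 reached 551 CPM. The iron-using genes cyc1, for cytochrome c, and aco1, for aconitase, were at -0.94 ± 0.09 and -0.67 ± 0.04.

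Ribosomal protein genes were lower by small amounts. Of 142 cytosolic ones, 102 were lower and 4 higher, with none 2-fold apart and a median of -0.26. Their summed level was 187523, 188676 and 206174 CPM in pla1-Y86L and 238446, 235152 and 228794 CPM in WT. Against the other mutants 23 were higher and 44 lower, with a median of -0.03. The paralogs rpl3002 (0.56 ± 0.03) and rpl102 (0.43 ± 0.05) were higher, and rpl1603 was at -0.73 ± 0.04. Reads of near-identical paralogs are uncertain, since how shared reads were counted is not given in the sources used here.

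**Figure D5:**
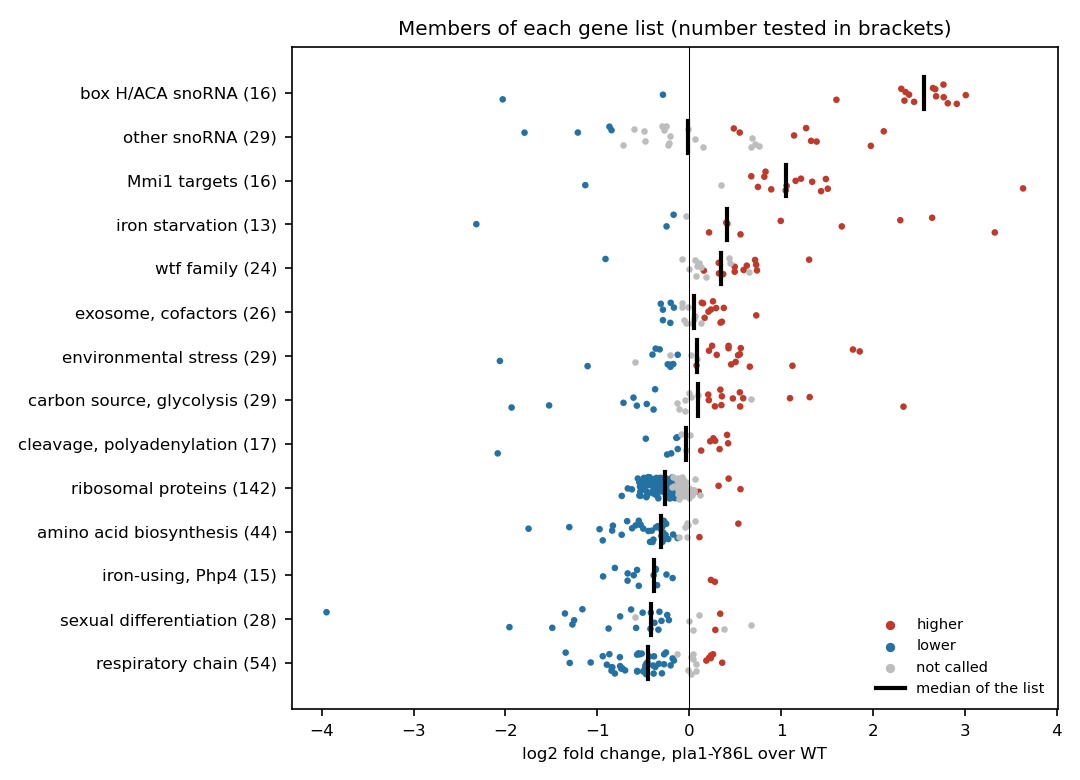
Log2 fold change of pla1-Y86L over WT for each tested member of 14 gene lists, one point per gene, coloured by call, with the list's median as a black bar. Medians run from 2.55 for box H/ACA snoRNA genes to -0.44 for respiratory chain genes, and the ribosomal protein genes form a narrow band below 0.

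Genes of the cleavage and polyadenylation machinery itself differed little apart from pla1. Of 17 subunits, 7 were higher and 7 lower, with a median of -0.04. Those higher included msi2, at 213, 207 and 214 CPM in pla1-Y86L and 148, 161 and 163 CPM in WT (0.42 ± 0.05), and rna14, at 221, 214 and 216 CPM in pla1-Y86L and 158, 173 and 159 CPM in WT (0.41 ± 0.04). Both encode cleavage factor subunits. Among the lower were ppn1 (-0.47 ± 0.05) and swd22 (-0.24 ± 0.05), which encode members of the phosphatase module. The endonuclease gene ysh1, at -0.04 ± 0.03, and ssu72 and pcf11 were not called. These 3 lie outside the naming rule and complete the list.

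Factors that act on poly(A) tails after Pla1 were listed together with other mRNA decay genes, such as the decapping gene dcp2 and the exonuclease gene exo2. This mixed list was split, with 7 of 24 genes higher and 10 lower. The scaffold gene of the Ccr4-Not deadenylase, not1, was at 205, 204 and 202 CPM in pla1-Y86L and at 338, 325 and 336 CPM in WT (-0.71 ± 0.03). It lay below all 18 libraries of the other mutants. Its partner not3 was at -0.45 ± 0.05. The uridylyltransferase gene cid1 was 0.48 ± 0.07 higher and the poly(A)-binding protein gene nab2 0.18 ± 0.04 higher. The pab2 mRNA, chosen for its role, was at -0.11 ± 0.04, and cid14, for the poly(A) polymerase of the TRAMP complex, was not called at 0.03 ± 0.04.

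The authors' deposited table of this comparison lists 2044 genes higher and 2083 lower at adjusted p under 0.05, and 328 higher and 131 lower at least 2-fold. Of the 4063 genes called by edgeR, 4015 are called in the same direction in the authors' deposited table and 0 in the opposite one. That table gives a mean above 0 for 17 genes without a read in the 24 deposited count columns, so it may rest on counts other than these.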

How the data were processed

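Raw counts per gene for the 24 libraries were made by the authors and deposited. Libraries came from poly(A)-selected RNA with a directional kit, per the labels' protocols. HISAT2 2.1.0, SAMtools, HTSeq 0.10.0, DESeq2 and genome build ASM294v2 are named, per the submitters' processing notes. No source used here gives the strand setting or the annotation release. The authors also deposited a table of pla1-Y86L against WT with log2 fold changes and p-values, per the file headers. No column of per-sample values was left unused.

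From the counts, genes were filtered with filterByExpr, scaled with TMM and fitted in edgeR 4.0.16 (R 4.3.3) with 1 mean per group over all 24 libraries (16 residual degrees of freedom). Each SE was derived from the test, as the size of the log2 fold change divided by the square root of the quasi-likelihood F statistic. All p-values were adjusted over 6287 genes. They rest on the spread between libraries that the labels call biological replicates. A fold change is at least 2-fold where its log2 value is 1 or more in size. Shares of counts by class were compared by an exact permutation test. The fit and test were checked on simulated counts in which a small set of genes, all above a count minimum, was changed. That check does not cover widespread changes or changes in genes with few reads.

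Gene names and neighbours came from RefSeq's annotation of another assembly, ASM294v3, which matched 6839 of 6988 identifiers. Its gene positions and strands were used to find neighbours and overlapping pairs, and no coordinate is printed. Members and gene lists were chosen with earlier results of these data known, and 3 of the 44 lists were added after values were seen. From the lists 9 entries were dropped because the symbol belongs to another gene. Genes named in the text are pla1, its antisense lncRNA, asp1, pho1, pho84 and tgp1, then the largest changes at least 2-fold with groups that do not overlap and at least 5 CPM, up to 4 called members per list and direction, the largest differences from the other mutants, and the 6 pairs with the widest gap. Others are said to be chosen otherwise. Alternatives were DESeq2 1.42.0, other size factors, no filter, fits of fewer groups, a replicate block and leaving out each library. Chi-square per degree of freedom between replicates was 2.60 to 17.3 in pla1-Y86L and 6.68 to 12.1 in WT, so each library was kept as its own replicate.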

Additional observations from a re-analysis of the deposited data

How the results depend on the processing

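No result reversed under any alternative run. At least 2-fold were 304 higher and 129 lower genes with DESeq2, 307 and 128 with other size factors, 335 and 132 without the filter, and 298 and 121 with only pla1-Y86L and WT in the fit. Leaving out each library in turn gave 292 to 318 higher and 124 to 130 lower. With a replicate block these were 306 and 128. Over all genes, same-numbered libraries deviated with correlations of -0.05, -0.04 and -0.07, so the main fit used no pairing. A correlation over all genes cannot show whether a smaller set of genes is paired, which was not tested. Of 262 genes followed against WT, 21 lost their call under at least 1 alternative, in 54 of 3140 values, none with the opposite sign. Higher in each alternative run were 14 box H/ACA genes and 14 genes of the Mmi1 list. The all-gene median shifted by under 0.02 in each scaling. With the gene with the most counts left out of its class, the difference in the protein-coding share was -0.571 percentage points (-0.199 with it), and in the snoRNA share 0.0518 (0.0843 with it). Without WT replicate 2 ght5 was at -1.61. Genes under about 1 CPM rest on few reads, which limits their values.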

Other observations

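Replicate 3 of pla1-Y86L stood apart from the other 2 in a run of adjacent genes near the mating-type locus mat1. The proteasome gene rpt6 was at 317, 320.0 and 570.2 CPM in the 3 pla1-Y86L libraries and at 247, 263 and 251 CPM in WT, and its call against WT was lost without replicate 3 (0.33). Further along the run, rpp202, for a ribosomal stalk protein, was at 723, 703 and 1489 CPM in pla1-Y86L and at 929.8, 964 and 899 CPM in WT. The run also holds snR92, mag2 and SPBC23G7.10c, while rga7, on the other side of mat1, was at 87.4, 89.6 and 94.7 CPM in pla1-Y86L and at 121, 118 and 122 CPM in WT. Single libraries of other mutants showed the same 2 genes high, with rpt6 at 423 and rpp202 at 1631 CPM in pfs2-E104A replicate 2 and at 437 and 1395 CPM in ysh1-L74F replicate 1. All 3 pta1-T524M libraries were low, at 146 to 151 CPM for rpt6 and 333 to 381 CPM for rpp202, and in cft1-L249Q rpt6 was at 177 to 192 CPM. These genes, other than snR92 and rpt6, were chosen after their values were seen. Among 4549 genes with at least 20 CPM in either strain, replicate 3 was more than 1.5-fold from the mean of the other 2 replicates in 23, and replicates 1 and 2 were more than 1.5-fold apart in 0.

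Against 32.2% of all genes higher and 32.4% lower, further gene lists gave the following counts. Genes of the histone list were lower in 8 of 13 and higher in 0. The lower ones include ams2 (-0.57) and hip1 (-0.17), which do not encode histones. The gene hht2, for histone H3, was at 445, 447 and 453 CPM in pla1-Y86L and 611, 558 and 588 CPM in WT (-0.39 ± 0.05). Thiamine-regulated genes were lower in 6 of 9, led by the transporter gene thi9 (-0.74 ± 0.11). Proteasome genes were higher in 15 of 34 and lower in 5, with pre3 at 320, 315 and 321 CPM in pla1-Y86L and 227, 230.0 and 218 CPM in WT (0.50 ± 0.03). Splicing factor genes were higher in 14 of 32 and lower in 9. Mitochondrial ribosomal protein genes were higher in 15 of 58 and lower in 18, which is near or below the shares of all genes. Of 10 copper and zinc genes 6 were lower, 2 of them at least 2-fold, and 1 higher. The zinc transporter gene zrt1 among them was at 106, 114 and 112 CPM in pla1-Y86L and 186, 441 and 177 CPM in WT (-1.27 ± 0.27), with WT replicate 2 high, and at -0.70 without that library. Uracil and pyrimidine genes were lower in 5 of 9 tested, urg2 at -2.07 among them, phosphate and inositol pyrophosphate genes in 8 of 13, and transcription termination factors in 6 of 16, with 1, 2 and 2 higher. Calls were split in the mRNA export genes (4 higher and 5 lower of 19), the septation genes (7 higher and 6 lower of 26), the oxygen and sterol genes (4 higher and 6 lower of 17) and the ribosome biogenesis genes (6 higher and 9 lower of 31). Of 22 flocculin and cell surface genes tested, 5 were higher and 10 lower, and of 5 Tf2 retrotransposons tested, 1, Tf2-11, was lower (-0.84).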
